A study of Drosophila melanogaster with 3 samples.

Results

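Of the 3670 reproducible binding sites of the CG5245 protein in fly embryos, 630 lay at divergent promoters, where 2 protein-coding genes start close together and are transcribed away from each other. A site was placed in this class when its summit, the position of highest signal within the peak, was within 500 bp of a minus-strand and of a plus-strand transcription start site (TSS) of different genes, with the minus-strand TSS at the lower coordinate. The rule uses position only, not the strength of the peak. Another 1063 sites had TSSs of 1 strand only within that distance and are called single-direction promoter peaks. A further 4 had TSSs on both strands that did not point away from each other, and 1973 had no protein-coding TSS that near. Chromatin immunoprecipitation followed by sequencing was done on 1 group of samples, with 3 biological replicates. These were whole embryos of mixed sex, 0 to 16 h old, from a transgenic line (CG5245-GFP) that stably carries CG5245 with green fluorescent protein at its C terminus. Per the description in the labels the tag was precipitated with an antibody against it, whereas the antibody field names CG5245 itself. Chromatin had been sheared by sonication to 200 to 800 bp. The values thus average over all embryonic tissues and stages of that window, and they come from 1 tagged line. Whether the untagged gene was also present, and which promoter drove the tagged copy, is not given in the sources used here, and the control that the labels name was not analysed here. No file holds read counts, so sequencing depth is unknown.

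CG5245 is a C2H2 zinc-finger protein, and such fingers are common among proteins that recognise particular DNA sequences. Divergent promoters are frequent in the compact fly genome, and the genes in them are often ones that most cells use. The interval between the 2 start sites serves both genes, tends to be free of nucleosomes when the genes are active, and often carries motifs bound by insulator proteins such as BEAF-32 or by the DNA replication-related element binding factor (DREF). BEAF-32 binds CGATA, and DREF binds the element TATCGATA (the DRE), which contains CGATA.

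The sequences below are the complete intervals between the TSSs at 6 of the strongest of these sites, read from the RefSeq copy of the Release 6 genome (dm6) on the plus strand, 5′ to 3′. The peak summit lies inside each of them, and the intervals overlap no annotated exon. Intervals at CG7601/CIA30 and CG13390/CG17294 were also read and are not shown. Their nearest CGATA lay 44 and 98 bp from the summit. Capitals mark CGATA on either strand, and TATCGATA where it occurs.
Art3/mRpS10: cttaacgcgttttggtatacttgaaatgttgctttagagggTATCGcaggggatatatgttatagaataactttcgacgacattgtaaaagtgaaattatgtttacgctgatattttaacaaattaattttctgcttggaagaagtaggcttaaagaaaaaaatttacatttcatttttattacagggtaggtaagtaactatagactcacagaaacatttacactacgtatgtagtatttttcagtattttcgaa
Tcs5/CHMP2B: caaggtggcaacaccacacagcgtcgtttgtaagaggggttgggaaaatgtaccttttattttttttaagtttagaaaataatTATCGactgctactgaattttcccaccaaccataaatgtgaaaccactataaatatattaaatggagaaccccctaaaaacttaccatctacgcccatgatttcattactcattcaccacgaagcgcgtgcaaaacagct
Atat/Shc: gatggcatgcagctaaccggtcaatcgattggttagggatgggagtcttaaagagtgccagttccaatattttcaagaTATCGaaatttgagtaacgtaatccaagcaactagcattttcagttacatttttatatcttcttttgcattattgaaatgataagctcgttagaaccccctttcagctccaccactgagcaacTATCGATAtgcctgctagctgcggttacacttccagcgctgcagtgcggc
Mkk4/SLIRP2: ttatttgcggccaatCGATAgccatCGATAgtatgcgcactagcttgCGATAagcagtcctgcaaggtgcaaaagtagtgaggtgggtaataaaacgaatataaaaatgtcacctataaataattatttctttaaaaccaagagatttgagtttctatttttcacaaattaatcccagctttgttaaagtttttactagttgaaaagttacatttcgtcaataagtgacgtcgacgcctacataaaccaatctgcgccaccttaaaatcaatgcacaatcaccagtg
Lon/PIG-F: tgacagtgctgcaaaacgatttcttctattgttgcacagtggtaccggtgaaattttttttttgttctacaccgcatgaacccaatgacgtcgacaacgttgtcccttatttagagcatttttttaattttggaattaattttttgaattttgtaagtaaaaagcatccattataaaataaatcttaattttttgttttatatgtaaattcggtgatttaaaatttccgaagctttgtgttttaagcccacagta
Reps/l(2)gd1: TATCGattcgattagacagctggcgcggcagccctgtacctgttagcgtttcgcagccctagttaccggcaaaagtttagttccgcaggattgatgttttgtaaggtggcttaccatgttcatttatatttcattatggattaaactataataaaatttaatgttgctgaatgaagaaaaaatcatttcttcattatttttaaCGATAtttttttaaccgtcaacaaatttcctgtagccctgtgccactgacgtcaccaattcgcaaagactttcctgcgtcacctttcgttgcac
The first lies at chr3R:15229409-15229664 between Art3 (minus strand), which encodes an arginine methyltransferase, and mRpS10 (plus strand), a protein of the mitochondrial ribosome, and its summit is at base 107. The second lies at chr3L:5139396-5139618 between Tcs5 and CHMP2B, which acts in membrane scission by ESCRT-III, with the summit at base 121. The Atat/Shc interval, chr3L:9426759-9427009, separates an alpha-tubulin acetyltransferase gene from a signalling adaptor gene and has its summit at base 128. The Mkk4/SLIRP2 interval, chr3R:8650797-8651083, starts at a kinase gene of the JNK pathway and has its summit at base 166. The Lon/PIG-F interval, chr3L:19612200-19612454, lies between genes for a mitochondrial protease and for an enzyme of glycosylphosphatidylinositol anchor synthesis, with the summit at base 97. The Reps/l(2)gd1 interval, chr2L:11106646-11106942, has its summit at base 206. Each interval was between 57% (Atat/Shc) and 69.9% (Art3/mRpS10) A and T. The CGATA nearest to the summit was centred on the summit base itself at Reps/l(2)gd1, 35 bp away at Tcs5/CHMP2B, 47 bp at Atat/Shc, 63 bp at Art3/mRpS10 and 116 bp at Mkk4/SLIRP2, and Lon/PIG-F held none.

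The strongest divergent promoter peaks that were in the lists of all 3 replicates are given first. Rank 1 is the region of highest signal in a list; the signal is the authors' own score and is used only to order regions within a list. The peak at Chro/Ssl1, genes for the chromatin protein Chromator and for a subunit of the transcription factor TFIIH, ranked 5 in the pooled set and 5, 8 and 5 in replicates 1, 2 and 3. The Art3/mRpS10 peak ranked 8, 7 and 8 in the replicates, and the peak at mRpS23/CenG1A, genes for a mitochondrial ribosomal protein and an Arf GTPase regulator, ranked 10 in all 3. Tcs5/CHMP2B ranked 15, 9 and 15. The next were Fbw5/CG9147 (25, 16 and 28), CG5611/Mtl (23, 22 and 31) and tank/CG12194 (40, 27 and 25), of which Mtl encodes a GTPase of the Rac type. Atat/Shc ranked 47, 31 and 20. None of these 8 peaks fell below rank 47 in any replicate.

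The other 12 of the 20 strongest peaks that were among the top regions of all 3 replicates were CG8372/CG8360, mRpL23/CG9004, Mkk4/SLIRP2, CG7601/CIA30, Pdrg1/Pal1, Pex11ab/CG8320, CG5757/CG5098, Lon/PIG-F, CG13390/CG17294, Reps/l(2)gd1, Mnat9/CG1792 and CG2993/sgll. Top regions are the 3670 regions of highest signal in a replicate, as many as the reproducible set holds. Among them mRpL23 encodes a protein of the mitochondrial ribosome, CIA30 an assembly factor of respiratory complex I and Pex11ab a peroxisomal protein. The replicate ranks lay closest together at mRpL23/CG9004 (51, 43 and 44) and at CG8372/CG8360 (48, 42 and 53). They lay farthest apart at CG2993/sgll (69, 165 and 64) and at Pdrg1/Pal1 (99, 25 and 68), a pair of genes for a prefoldin-like protein and a peptide-amidating enzyme. The summits of the 3 replicates fell within 6 bp of each other at CG5611/Mtl and at Reps/l(2)gd1, within 8 bp at Art3/mRpS10, and 111 bp apart at Pdrg1/Pal1.

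Of the 630 peaks, 437 (69.4%, 95% exact binomial interval 65.6 to 72.9, counting error only) overlapped top regions of all 3 replicates, 142 of exactly 2, 49 of 1 and 2 of none. In the whole reproducible set the share in all 3 was 66.5%. The reproducible set was made from these replicates, so the counts describe the members and test nothing. Single-direction peaks reached 67.0%. By replicate, 89.0%, 87.8% and 84.1% of divergent peaks (87.0% ± 2.55, SD, n = 3) and 89.5%, 84.9% and 80.0% of single-direction peaks (84.8% ± 4.75) were in top regions. The difference of 2.19 ± 2.36 percentage points was below zero in replicate 1 and did not exceed the spread between replicates (p = 0.5, exact 2-sided sign-flip test over 3 replicates, for which 0.25 is the smallest possible p). With TSSs within 250 bp it was 5 ± 1.48 points, above zero in 3 of 3 replicates.

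The order of divergent and single-direction peaks by rank depended on the setting. The median rank of divergent peaks was 1689 in the pooled set and 1660.5, 1582.5 and 1724.5 in the replicates, against 1748 and 1564, 1677 and 1671 for single-direction peaks. The mean difference of 18.5 ± 100.2 ranks (SD, n = 3) had no constant sign (p = 0.75, exact 2-sided sign-flip test). With TSSs within 250 bp divergent peaks ranked higher in 3 of 3 replicates (-155.8 ± 96.2 ranks), and among the upper 50% of peaks by signal they ranked lower in 3 of 3 (70.5 ± 21.2). At the upper end their share was larger: 24 of the 100 strongest peaks of the set (24%) were members, against 17.2% of all 3670. It was 19.6% among the strongest 500 and 18.7% among the strongest 1000. Whether single-direction peaks also have a larger share there was not tested. The top 100 regions of the replicates gave 24%, 20% and 24%, and their 3670 top regions 17.8%, 17.2% and 16.4%. The peaks whose rank differed most between replicates were CG1602/PIG-G, with no overlapping region in replicate 1 and ranks of 374 and 320 in the others, and plu/RpS18 and Rok/RpS19a, each with none in replicate 3. At CG1602/PIG-G a second member, 199 bp away, ranked 382, 374 and 320 and shared the regions of replicates 2 and 3, so the pair itself had a region in every replicate. The median distance between the highest and the lowest replicate summit was 50 bp over the 624 members with a region in every replicate, and 46 bp in 1043 single-direction peaks.

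The 630 peaks belonged to 598 nearest gene pairs and 1236 genes. Exactly 1 gene pair met the rule at 599 peaks and 2 pairs at 28. At the other 3 peaks the number is a matter of annotation. The peak at pre-mod(mdg4)-E/pre-mod(mdg4)-Y on arm 3R counted 21 pairs because mod(mdg4), a chromatin insulator gene known for trans-splicing, is annotated as many small genes on both strands. The peaks at PIG-M/NC2alpha and CG31650/CG33995 counted 4 and 3. Conversely 32 gene pairs held 2 members each. At eIF3h/senju the summits lay 273 bp apart, the peaks ranked 730 and 2471, and 1 region of replicate 2 (rank 536) and 1 of replicate 3 (rank 860) overlapped both. At phol/CG3552 the set lists the same interval with 2 summits, at ranks 90 and 1964. Both members at RpL34b/CG8132, of pooled ranks 436 and 1388, overlapped the same replicate regions, of ranks 214, 676 and 859. Regions shared in this way enter the replicate counts and medians once per member, also in the gene lists.

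Divergent pairs carried a CG5245 site more often than genes outside such pairs. The genome held 2667 divergent pairs of protein-coding genes with at most 1000 bp between TSSs, formed by 5052 of 13945 genes, and 651 pairs (24.4%, interval 22.8 to 26.1) were occupied, meaning that a reproducible summit lay within 500 bp of both TSSs. Of the 8893 genes in no such pair, 767 (8.62%, interval 8.05 to 9.23) had a summit within 500 bp of a TSS, and of all protein-coding genes 15.8%. With the top regions of the replicates the pairs gave 25.1%, 24.3% and 23.0% and the unpaired genes 9.21%, 8.19% and 8.38%. The difference was 15.5 ± 0.774 percentage points (SD, n = 3), above zero in 3 of 3 replicates and larger than the spread between them, with p = 0.25, the smallest the exact sign-flip test can give here. A summit near both TSSs of a pair has less room than a summit near a single TSS, because the permitted window shrinks by the spacing. Candidate regions of any strength in the pooled list of 30000 were also commoner at pairs, at 59.9% against 39.3% of unpaired genes. Among those with a candidate, 40.7% of the 1598 pairs and 21.9% of the 3498 unpaired genes were occupied. For genes with a single annotated TSS the shares were 22.6% ± 0.962 of 1265 pairs and 5.47% ± 0.285 of 6791 unpaired genes (SD, n = 3).

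Occupancy changed sharply with the distance between the TSSs. In the reproducible set 39.5% of pairs 201 to 300 bp apart (214 of 542) and 37.2% of pairs 301 to 400 bp apart (149 of 400) were occupied. The share was 24.2% at 1 to 100 bp (104 of 429), 21.0% at 101 to 200 bp (75 of 357) and 24.3% at 401 to 500 bp (65 of 267). By replicate, pairs 201 to 300 bp apart gave 40.8%, 39.7% and 36.0% and pairs 101 to 200 bp apart 23.5%, 19.9% and 16.0%, so the 2 classes did not overlap. Beyond 500 bp the share fell to 11.6% and then to 0.645%, but there the permitted window closes. With a fixed window of 500 bp on either side of the midpoint the same wide classes had 23.0% ± 1.84 at 501 to 700 bp and 16.2% ± 1.62 at 701 to 1000 bp (SD, n = 3), and the classes of 201 to 400 bp kept the highest shares, 39.2% ± 2.70 and 36.5% ± 0.25. The bins were chosen after the values had been seen.

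The step was steepest for pairs in which each gene has 1 annotated TSS, so that the spacing has a single value. Of these pairs, 30 of 312 (9.62%) were occupied at 1 to 200 bp, 212 of 526 (40.3%) at 201 to 400 bp and 50 of 427 (11.7%) at 401 to 1000 bp. The replicates gave 13.5%, 7.37% and 7.05% for the first class and 39.7%, 37.5% and 37.6% for the second. In bins of 50 bp the share was 7.07% ± 1.75 at 151 to 200 bp and 41.3% ± 3.02 at 201 to 250 bp (SD, n = 3), with 66 and 134 pairs. It was 36.8% ± 3.65 at 351 to 400 bp and 22.4% ± 1.18 at 401 to 450 bp. Candidates of any strength were also less frequent at the close pairs, at 33.3% of those 151 to 200 bp apart and 80.6% of those 201 to 250 bp apart, although 65.3% of those 1 to 50 bp apart had one. Whether close pairs differ in expression, tissue or annotation quality was not tested.

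**Figure D1:**
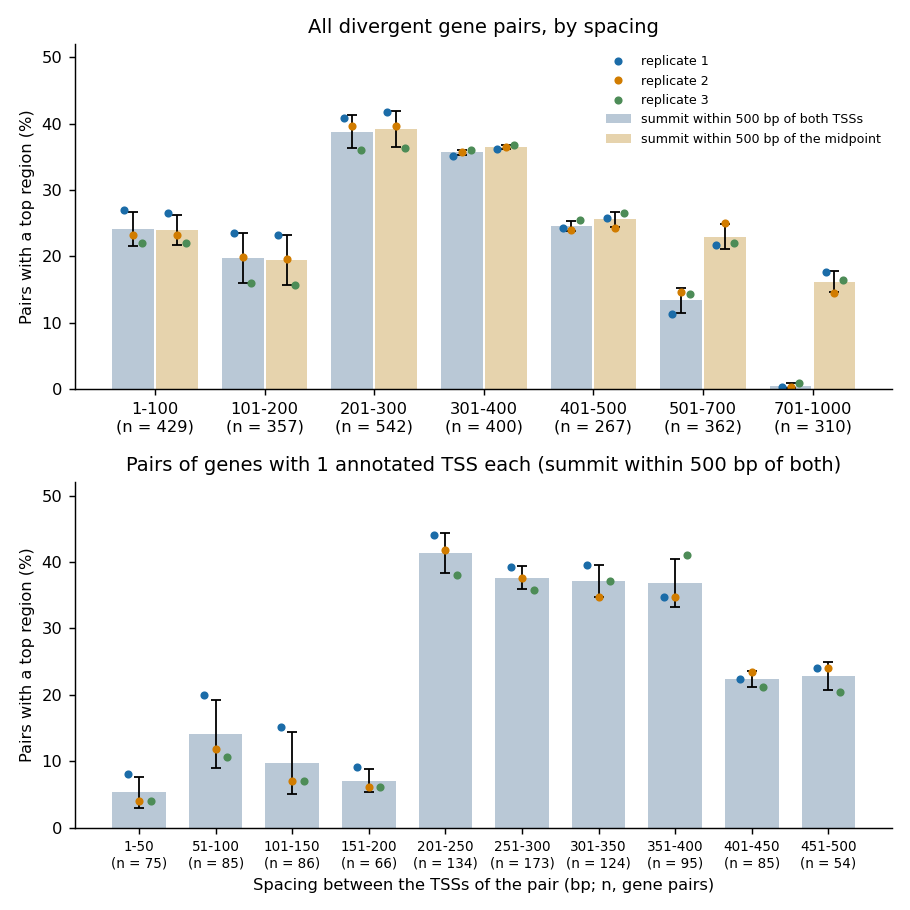
Percentage of divergent gene pairs (y axis) with a summit of the replicate's 3670 top regions, by distance between the TSSs in bp (x axis, n pairs); bars are means and error bars SDs of 3 replicates, points the replicates. The upper panel shows all pairs under 2 definitions, with the highest bars at 201 to 400 bp; the lower panel shows pairs of genes with 1 TSS each in bins of 50 bp, where the share is 7.07% at 151 to 200 bp and 41.3% at 201 to 250 bp.

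The members themselves had a median spacing of 284 bp between the TSSs nearest to the summit, with quartiles at 218 and 379 bp. The median of all 2667 pairs was 301 bp, measured between the closest TSSs of each gene pair. These medians are thus not the same measure, and the rule also keeps few wide pairs among the members. In the top regions of the replicates occupied pairs had a median spacing of 271.5 ± 9.34 bp and unoccupied pairs of 321.7 ± 9.02 bp, a difference of -50.2 ± 18.3 bp (p = 0.25, exact sign-flip test, the smallest possible). With the fixed window around the midpoint the difference was -14.0 ± 13.5 bp (-28, -13 and -1 in the replicates). Medians do not show the step described above. The closest members were Atg6/Pisd (1 bp, rank 3373), genes for an autophagy protein and a phosphatidylserine decarboxylase, and SerRS/CG17260 (8 bp, rank 708). The widest were CG2246/CG31021 (717 bp, rank 2487), GrlHz/CG42694 (708 bp, rank 3042) and app/CG32100 (687 bp, rank 1739). Of these 5 members only SerRS/CG17260, with 664, 647 and 709, had nearly equal ranks in the replicates. At Atg6/Pisd they were 5796, 2644 and 6372.

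Summits lay between the start sites rather than over either gene. Of the 630 summits, 534 (84.8%, interval 81.7 to 87.5) were between the TSSs, 52 were on the side of the minus-strand gene and 44 on that of the plus-strand gene. The top regions of the replicates gave 82.4%, 85.1% and 85.2%. The stretch between the TSSs made up 45.0% of the window in which a summit could lie. Among the 1057 weaker candidates at divergent pairs the share was 69.5%, with a nearly equal stretch of 44.7%. Where a gene has several TSSs, the pair of TSSs nearest to the summit was used, which favours summits between them. With the closest TSSs of each gene pair instead, the share was 77.0%. With the 280 members whose genes have 1 TSS each, for which no choice arises, it was 95.4% (267 of 280) and 94.0% ± 1.59 in the replicates (SD, n = 3), against 72.7% (331 of 455) of the weaker candidates. There was no lean to 1 strand: 263 of the summits between the TSSs were nearer to the minus-strand TSS, 269 to the plus-strand TSS and 2 equally near.

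The summit's distances to the TSSs changed with the spacing. In pairs 201 to 300 bp apart its median distance from the midpoint was 48.5 bp, with the nearer TSS 77.0 bp and the farther TSS 180 bp away. In pairs 401 to 500 bp apart the nearer TSS was 96.0 bp away and the farther 341.5 bp, and the summit was 126.2 bp from the midpoint. Over the classes from 1 to 100 bp up to 501 to 700 bp, the median distance to the nearer TSS rose from 30 bp through 43, 77, 89 and 96 bp to 168 bp. Part of this rise is set in advance. A summit between the TSSs lies no farther from the nearer one than the midpoint does, and wider spacing moves the midpoint away. Beyond a spacing of 500 bp the rule also holds the summit off either TSS. By replicate, the median distance to the nearer TSS was 71.5 ± 3.97 bp at 201 to 300 bp and 101 ± 12.8 bp at 401 to 500 bp (SD, n = 3). Examples are Tcs5/CHMP2B (121 and 103 bp from the minus-strand and plus-strand TSS) and Atat/Shc (128 and 124 bp) among the shorter pairs. At mRpS23/CenG1A the distances were 388 and 104 bp, at CG5757/CG5098 339 and 166 bp. Single-direction summits upstream of their nearest TSS were 167 bp from it at the median, and 83.6% of single-direction summits were upstream. In pairs at most 100 bp apart 23 of 74 summits (31.1%) were between the TSSs. That stretch made up 6.28% of the window in which a summit could lie. In pairs 201 to 300 bp apart the corresponding shares were 90.8% and 34.5%.

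**Figure D2:**
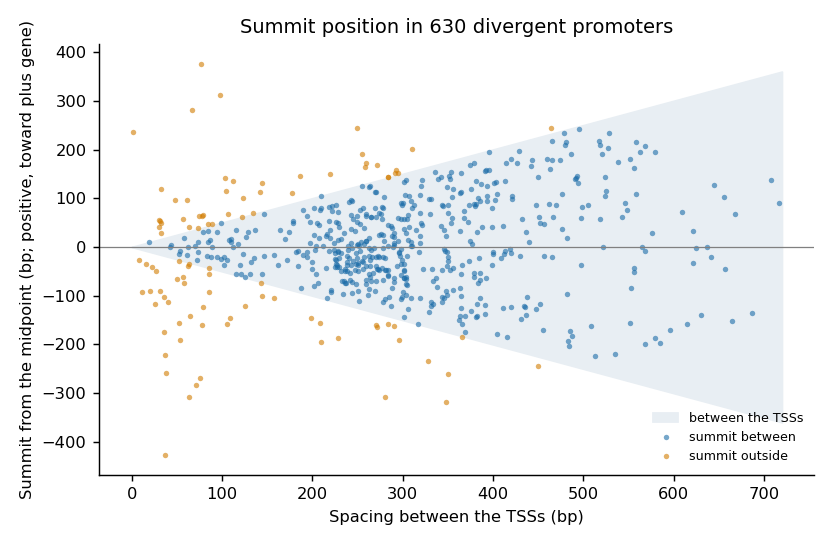
Distance of the summit from the midpoint of the 2 TSSs in bp (y axis, positive toward the plus-strand gene) against the spacing in bp (x axis) for the 630 peaks of the reproducible set. The shaded wedge is the stretch between the TSSs, which holds 534 points; the outer 96 are mostly at small spacing.

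Most members did not touch annotated exons at the summit. The summit base lay in an exon at 126 members (20%) and in a 5′ untranslated region at 119 (18.9%), but in coding sequence at only 2. Of the 534 summits between the TSSs, 8.24% were in an exon, which belonged to another transcript or gene, and of the other 96 summits 85.4%. Examples of the latter class were the strongest member, Chro/Ssl1, whose summit lay 105 bp inside the Chro transcript, and tank/CG12194, with the summit 144 bp inside tank. The limit of 500 bp itself cut through a thin part of the distribution: 17 members had the farther TSS 475 to 500 bp away, and 10 other peaks missed the rule with it 501 to 525 bp away. The members just inside were CCT8/CG30349 (498 bp), Nbr/Noc2 (495 bp) and GrlHz/CG42694 (492 bp), with ranks of 1703, 2703 and 3042. Just outside were peaks at beta4GalNAcTB/Cpsf100 (502 bp), CG10804/CG10802 (503 bp) and TTLL5/vig2 (507 bp), with ranks of 3244, 2429 and 2507. The pair beta4GalNAcTB/Cpsf100 also held a stronger peak, of rank 1485, that is a member.

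Divergent pairs with a cytoplasmic ribosomal protein gene had the highest occupied share of the gene lists examined. Of 57 such pairs, 29 (50.9%, interval 37.3 to 64.4) were occupied, beside 24.4% of all pairs, and the replicates gave 50.9%, 50.9% and 43.9%. Counted as genes, 39 of 55 in such pairs (70.9%) and 19 of 37 outside them (51.4%) had a summit within 500 bp of any of their TSSs, beside 28.6% of all genes in divergent pairs and 8.62% of all genes outside them. The strongest members were RpS27/Nup37, shared with a nuclear pore gene (summit 16 bp from the RpS27 TSS), Ripalpha/RpL7 (spacing 30 bp), whose partner encodes a replication protein A interacting protein, and RpL41/NaCP60E (spacing 182 bp). Mitochondrial ribosomal protein genes were mostly in divergent pairs, 58 of 73, and 21 of their 60 pairs (35.0%, interval 23.1 to 48.4; replicates 35.0%, 33.3% and 31.7%) were occupied. The strongest were Art3/mRpS10, mRpS23/CenG1A and mRpL23/CG9004. Of the 15 outside pairs 0 were occupied, where the share over all unpaired genes was 8.62%.

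Vesicle trafficking genes gave 20 of 57 pairs (35.1%; replicates 31.6%, 33.3% and 33.3%), led by Tcs5/CHMP2B, Fur1/Vps33B and Snx21/aph-1, which pair a furin protease gene with a fusion factor gene and a sorting nexin gene with a gamma-secretase subunit gene in the latter cases. Genes of the RNA polymerase II machinery gave 19 of 57 (33.3%; replicates 33.3%, 38.6% and 33.3%), led by the Mediator pairs MED30/Rev1 and elm/MED27 and by 140up/Polr2B. For these lists the intervals, 22.9 to 48.9 and 21.4 to 47.1, reach below the share of all pairs. Aminoacyl-tRNA synthetase genes gave 7 of 27 (25.9%; replicates 29.6%, 25.9% and 29.6%), with GluProRS/AP-1sigma, Hem/IleRS and SerRS/CG17260, and translation factors 7 of 29 (24.1%; replicates 20.7%, 20.7% and 17.2%), with eIF4EHP/CG18428, RpL28/eIF1 and eIF3h/senju. The proteasome list gave 6 of 27 (22.2%; 29.6% in each replicate), with Hat1/Rpn5, l(2)37Bb/Rpn3 and Rpn6/ave. Oxidative phosphorylation genes gave 10 of 48 (20.8%; replicates 33.3%, 18.8% and 22.9%), with ND-ASHI/Fum1, ND-51/CG13994 and corolla/ND-24. Splicing genes gave 3 of 25 (12%; replicates 12%, 16% and 8%), at Sf3b6/Tnpo, snRNP-U1-C/gukh and Prp18/CG6013, and mitochondrial import genes 2 of 7, both at the peak of CG8229/Tom7. Pairs with an uncharacterised gene (CG number) were occupied in 321 of 1449 cases (22.2%; replicates 22.3%, 21.6% and 20.6%). Except for 1 trafficking pair and 1 polymerase pair, neither occupied, no pair held 2 genes of the same list apart from the uncharacterised one, where 62 of 379 were occupied.

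**Figure D3:**
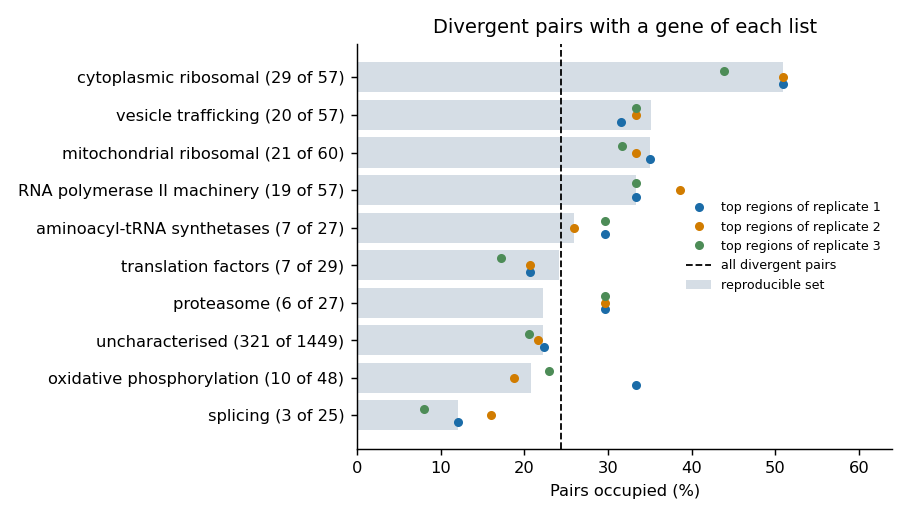
Percentage of divergent pairs with at least 1 gene of a list that were occupied (x axis), for lists with 20 or more such pairs (y axis, occupied of all pairs); bars are the reproducible set and points the top regions of each replicate. The dashed line is the 24.4% of all divergent pairs; the ribosomal list stands at 50.9%.

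Peaks at ribosomal protein pairs ranked higher in replicate 1 than in the others. RpS27/Nup37 ranked 49, 157 and 223 in replicates 1, 2 and 3, Ripalpha/RpL7 45, 190 and 358, and RpL41/NaCP60E 145, 462 and 471. The best of the 3 ranks was in replicate 1 at 24 of the 29 peaks with a cytoplasmic ribosomal protein gene (82.8%), beside 215 of all 630 members (34.1%). The median ranks of the 29 peaks were 520, 1057 and 1643, and 28, 27 and 23 of them were in the top regions. RpL32/CG7943 was an exception, with 318, 217 and 439. The 31 single-direction peaks at ribosomal protein genes, which are other sites, behaved alike: 24 had their best rank in replicate 1, and the medians were 1367, 1954 and 2882. Of all 1063 single-direction peaks 421 did. In the other lists with 6 or more peaks the share with the best rank in replicate 1 ran from 14.3% (aminoacyl-tRNA synthetases) to 36.1% (uncharacterised genes), and it was 7 of 20 for mitochondrial ribosomal genes. Other lists leaned to replicate 2, which gave the best rank at 33.2% of all members. It did so at 13 of 21 vesicle trafficking peaks (61.9%) and 12 of 20 of the RNA polymerase II machinery (60%). In the remaining lists of that size, without the cytoplasmic ribosomal one, its share ran from 28.7% (uncharacterised) to 57.1% (aminoacyl-tRNA synthetases). The trafficking medians were 1811, 1422 and 2836. These comparisons were chosen after the ranks had been seen. Whether the differences go with the embryos' ages or the depth of a replicate was not tested.

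**Figure D4:**
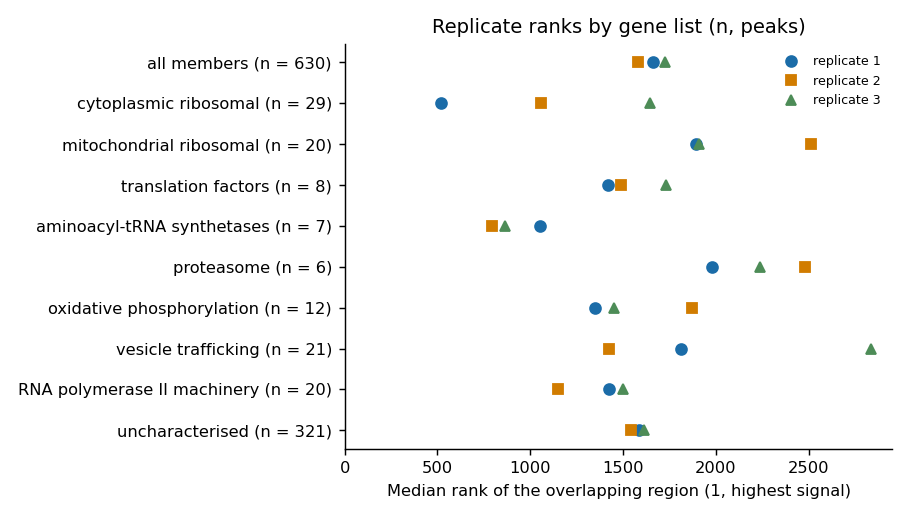
Median rank in each replicate (x axis, 1 is the highest signal) of the divergent promoter peaks with a gene of each list (y axis, n peaks). The symbols nearly coincide for all members, while those of the ribosomal list spread from 520 in replicate 1 to 1643 in replicate 3. Those of the vesicle trafficking list spread from 1422 in replicate 2 to 2836 in replicate 3.

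The BEAF-32 motif was commoner at divergent than at single-direction summits. Motifs were counted on both strands within 50 bp of the summit, a window of 101 bp. CGATA was present at 176 of 630 members (27.9%, interval 24.5 to 31.6), at 11.9% of windows 500 bp away, on alternating sides, and at 20.4% of single-direction summits; the share over all reproducible peaks was 16.6%. By replicate top regions the share was 27.7% ± 0.842 at divergent and 18.0% ± 2.37 at single-direction peaks, a difference of 9.76 ± 1.56 percentage points (7.97, 10.5 and 10.8; p = 0.25, exact sign-flip test, the smallest possible). The difference shrank to 1.67 ± 0.803 points when TSSs within 250 bp, not 500 bp, defined the classes. The full DRE, TATCGATA, was at 37 members (5.87%) and at 2.54% of single-direction summits, beside 1.88% of all peaks, and its difference in the replicates was 4.07 ± 0.247 points. GGTCACACT, the core of Motif 1, which the promoter factor M1BP binds, was at 12 members (1.90%) and 0.659% of single-direction summits.

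CGATA was not commoner at the midpoints of occupied divergent pairs than at those of unoccupied ones. At the midpoint of the closest TSSs, a place defined without the peaks, it was found in 19.2% of occupied and 25% of unoccupied pairs. In the replicates the shares were 20.1% ± 1.21 and 24.7% ± 0.316, and the difference of -4.55 ± 1.53 points was below zero in 3 of 3 (p = 0.25, exact sign-flip test, the smallest possible). TATCGATA went the same way, with 3.69% of occupied and 5.26% of unoccupied midpoints. So did the core of Motif 1, with 1.69% and 2.33%. Here and below, occupied and unoccupied pairs were not matched for spacing, in which they differ. The midpoint window reaches the TSSs only at close pairs. Summits of members lay a median of 65.8 bp from the midpoint of their TSSs, beyond the 50 bp that the window covers on either side. These shares therefore do not tell motif content at the summit. CGATA was also rarer at the strongest members. It was present at 35 of the 210 strongest (16.7%), 62 of the next 210 (29.5%) and 79 of the weakest 210 (37.6%), and at 344 of the 1057 candidates at divergent pairs below the reproducible set (32.5%). Members with CGATA had a median rank of 2155.5 and members without it of 1501. In the replicates the difference was 308, 726.5 and 691 ranks (575.2 ± 232.1, p = 0.25, exact sign-flip test, the smallest possible). Single-direction peaks with the motif also ranked lower, by 237, 608 and 1052.

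**Figure D5:**
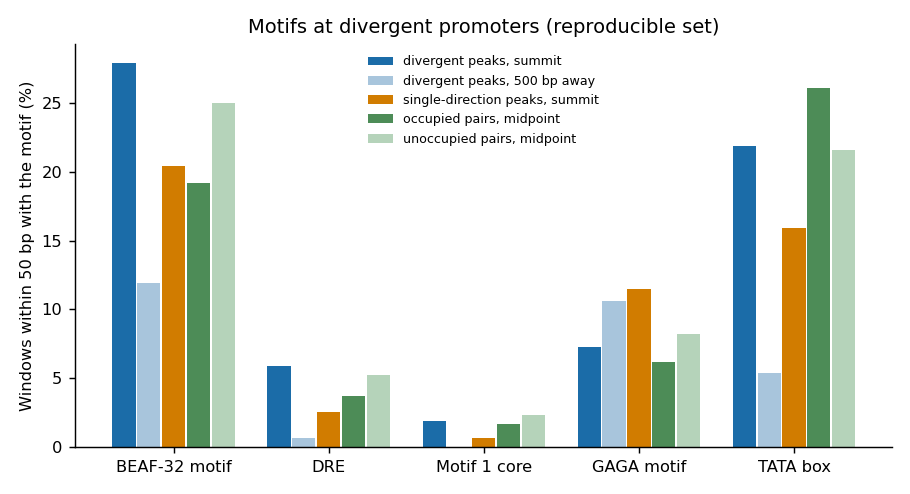
Percentage of windows of 101 bp with each motif (y axis), in the reproducible set, at summits of divergent peaks, 500 bp away from them, at single-direction summits and at the midpoints of occupied and unoccupied divergent pairs. The BEAF-32 motif stands at 27.9% of divergent summits and at 25% of unoccupied midpoints.

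Summit windows of divergent peaks had an A and T content of 64.5%, against 50.3% for the windows 500 bp away, 62.4% at single-direction summits and 65.4% at reproducible peaks with no TSS within 500 bp. The difference from single-direction peaks in the replicates was 2.28 ± 0.241 percentage points (p = 0.25, exact sign-flip test, the smallest possible). At the midpoint of pairs the A and T content was 68.9% ± 0.495 for occupied and 65.8% ± 0.123 for unoccupied pairs (SD, n = 3). TATAAA, the TATA box sequence, was at 21.9% of members, 5.40% of flanking windows, 15.9% of single-direction summits, 19.6% of summits with no TSS and 18.9% of all reproducible peaks. It was at 27.0% ± 1.31 of occupied and 21.4% ± 0.341 of unoccupied midpoints. GAGAG, which the GAGA factor binds, was rarer at divergent than at single-direction summits, at 7.30% and 11.5%, a difference of -4.49 ± 0.988 points in the replicates. The Zelda motif CAGGTA (1.90%) and the E-boxes CAGCTG (6.51%) and CACGTG (1.59%) were no more frequent than in the windows 500 bp away (3.97%, 6.98% and 1.75%). Those windows are poorer in A and T. At single-direction summits the shares were 1.88%, 5.55% and 1.32%, and at all reproducible peaks 2.10%, 4.06% and 0.954%.

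All of the 12 words of 6 bases with the largest excess at summits over flanks on arms 2L, 2R and X held only A and T. The first, TAAAAA, was in 37.0% of summit windows and 7.67% of flanks there (300 members), and in 33.9% and 8.79% on arms 3L, 3R and 4 (330 members). It was also in 28.3% of single-direction summits and in 33.1% of the midpoints of unoccupied pairs. The leading word with C or G at 2 or more bases was TATCGA, part of the DRE, in 17% of summit windows on the first arms and 17.3% on the others, against 4.33% and 2.42% of flanks. TATCGA was in 15.0% of unoccupied midpoints and in 12.6% of occupied ones. AACACT, by contrast, was in 12.7% and 11.2% of summit windows, in 11.1% of occupied midpoints and in 6.99% of unoccupied ones. It was also in 8.94% of single-direction summits. Other words with C or G went both ways at the midpoints. ACACTG was in 9.06% of occupied and 6.1% of unoccupied ones, AGCACT in 6.45% and 6.35%, and CGATAA in 8.29% and 12.3%.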

How the data were processed

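Per the deposited text files, the authors derived candidate regions from each of 3 replicates and from their pool with a control, and a reproducible set from these lists; the aligner was not given in the sources used here, nor the peak caller. Each region's signal is the score the authors deposited, which served for ordering alone. A deposited −log10 q value, the same for all reproducible peaks, was left unused. The dm6 lists held 3670 reproducible peaks, 30000 pooled candidates, and 30000, 30000 and 29608 candidates for replicates 1 to 3. Coordinates are counted from 1. TSSs were those of Ensembl release 115 protein-coding transcripts on the main arms, 19607 gene and TSS combinations of 13945 genes. Regions overlapped when they shared at least 1 bp, and a peak with no region in a replicate took the list length plus 1 as rank. Gene lists were defined by symbol (for instance RpL and RpS). The text names the 20 strongest members in top regions of all 3 replicates, the 3 closest, 3 widest and 3 most discordant ones, those next to the limit of 500 bp, and up to 3 per list; others were chosen after their values were seen, and 1 of the closest is not reported here. Members, lists, motifs and tests were chosen with earlier results of these data known. Intervals are 95% exact binomial (Clopper-Pearson) and cover counting error only. The classification was tested on simulated peaks. Alternatives were other distances, overlaps and signal limits, and leaving out each replicate. Python 3.11.15, numpy 2.4.6, pandas 2.3.3 and scipy 1.17.1 were used.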

Additional observations from a re-analysis of the deposited data

How the results depend on the processing

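Of 58 alternatives, most left the direction of the 8 main results as it was. The difference in median rank between divergent and single-direction peaks changed sign, to -155.8 with TSSs within 250 bp and to -28.8 with an overlap of 50% of the peak, and ran from -20.5 to 75 without any 1 replicate. The cause was not tested. The share of summits between the TSSs was 82.9% at 1000 bp, 77.0% with the closest TSSs and 95.4% with 1 TSS per gene, the last chosen after seeing the data. The number of divergent promoter peaks was 397 at 250 bp and 332 among the upper 50% of peaks by signal. With 1 replicate left out, 472 to 500 of the 630 members overlapped top regions of all the remaining replicates. The reproducible set itself was not rebuilt. The excess of occupied pairs over unpaired genes was 8.87 percentage points with the upper 50% of top regions, 12.3 at 1000 bp, and 15.3 to 16.0 without any 1 replicate. The spacing difference was -10 bp at 250 bp and -199 bp at 1000 bp. The CGATA difference was 6.26 points with the upper 50% of top regions and 13.8 with windows of 100 bp on either side. The A and T difference was 4.51 points at 250 bp and 0.832 at 1000 bp. With gene pairs that share both TSSs counted once, chosen after seeing the data, the excess of occupied pairs was 15 points. No paired analysis was possible because the samples form 1 group. Depth is unknown, 3 replicates allow no p under 0.25, and expression was not measured.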

Other observations

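The occupied share of divergent pairs differed between chromosome arms, whereas that of unpaired genes differed little. On X 61 of 403 pairs were occupied (15.3% ± 0.939 in the top regions of the replicates, SD, n = 3), on 2R 20.3% ± 0.803, on 2L 24.5% ± 1.65, on 3L 27.6% ± 1.35 and on 3R 29.8% ± 1.48 (210 of 683 in the reproducible set). Unpaired genes had 9.70% ± 0.490 on X and 8.61% ± 0.588 on 3R. None of the 11 pairs on chromosome 4 held a reproducible peak. The arms were compared after their values had been seen, and no test was made.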
